A study of Mus musculus with 6 samples.

Results

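F-box genes encode the substrate-choosing subunits of SCF ubiquitin ligases, and the mouse carries a tandem array of Fbxw genes on chromosome 9 whose transcripts are prominent in oocytes. The genes described here were all Ensembl genes of the expression matrix whose symbol begins with Fbxw, Fbxo or Fbxl followed by a digit, leaving out Fbxo5, Fbxo43 and genes marked as pseudogenes in their symbol. The rule used no measured value and gave 77 of 53700 Ensembl genes, with 24 Fbxw, 34 Fbxo and 19 Fbxl members. Among the Fbxw genes, 15 formed the chromosome 9 cluster (Fbxw13 to Fbxw16 and Fbxw18 to Fbxw28). In the annotation 75 members were protein-coding. The exceptions were Fbxw23, a transcribed unprocessed pseudogene, and Fbxl12os, a long noncoding RNA on the strand opposite Fbxl12 that is taken in by its name only.

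RNA was sequenced from metaphase II (MII) oocytes of female ICR mice aged 42-45 weeks, which stand in for advanced reproductive age. IVM oocytes (n = 3 pools) were stripped of cumulus cells at the germinal vesicle stage after PMSG priming and matured in culture for 12 h. IVO oocytes (n = 3 pools) matured in the animal after PMSG and hCG and were taken as ovulated oocytes 14 h after the hCG injection. Each pool held 20 oocytes from 3 mice, so a value is an average over several animals. Besides the site of maturation, the groups differed in hCG exposure and in when and how the cumulus cells were removed, and these cannot be told apart.

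The adaptor Skp1 joins an F-box protein to the scaffold Cul1, and the RING protein Rbx1 brings in the ubiquitin-charged enzyme, so that the F-box protein decides which substrate is marked for the proteasome. The subfamilies are named for the part that binds the substrate, which is a WD40 repeat domain in Fbxw, a leucine-rich repeat in Fbxl and another or no recognised domain in Fbxo. Regulated protein destruction drives the meiotic divisions, and a mature oocyte is almost silent in transcription, so its mRNA is mostly a stored maternal pool that is translated or degraded on schedule. In the deposited domain annotation an F-box was listed for 14 of the 15 cluster genes and WD40 repeats for 0 of 15, against WD40 repeats in 7 of the 9 Fbxw genes outside the cluster. Leucine-rich repeats were listed for 9 of the 19 Fbxl members.

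The 15 cluster genes lay in 651224 bases at chr9:108968515-109619738 (GRCm39), all on the minus strand, with 0 other protein-coding genes between them. The stretch of 150 bases upstream of the annotated transcript start was nearly the same in 14 of them. Over their 91 pairs, identity ran from 83.7% to 97.8% with a median of 90.5%, along 112 to 150 aligned bases. The sequences of the most abundant pair (Fbxw14, Fbxw28), of 3 genes with lower transcript levels in IVO oocytes (Fbxw13, Fbxw21, Fbxw26) and of 1 gene whose level was not lower (Fbxw20) are shown 5′ to 3′ on the gene's strand, with capitals marking E-boxes (CANNTG) and the AT-rich hexamer TTTAAA:
Fbxw14 (chr9:109116745-109116894): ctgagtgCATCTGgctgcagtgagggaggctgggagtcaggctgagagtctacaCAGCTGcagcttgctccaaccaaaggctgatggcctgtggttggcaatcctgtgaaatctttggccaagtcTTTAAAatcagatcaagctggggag
Fbxw28 (chr9:109168728-109168877): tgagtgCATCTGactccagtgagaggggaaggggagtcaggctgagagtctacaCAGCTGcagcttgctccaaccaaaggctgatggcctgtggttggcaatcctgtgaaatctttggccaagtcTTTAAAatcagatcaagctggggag
Fbxw13 (chr9:109025044-109025193): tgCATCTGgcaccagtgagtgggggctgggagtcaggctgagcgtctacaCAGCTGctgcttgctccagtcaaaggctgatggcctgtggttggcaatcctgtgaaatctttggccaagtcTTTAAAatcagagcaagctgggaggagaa
Fbxw21 (chr9:108991110-108991259): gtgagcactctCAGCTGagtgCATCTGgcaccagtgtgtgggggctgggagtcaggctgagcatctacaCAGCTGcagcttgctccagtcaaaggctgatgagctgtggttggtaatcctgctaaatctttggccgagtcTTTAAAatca
Fbxw26 (chr9:109575158-109575307): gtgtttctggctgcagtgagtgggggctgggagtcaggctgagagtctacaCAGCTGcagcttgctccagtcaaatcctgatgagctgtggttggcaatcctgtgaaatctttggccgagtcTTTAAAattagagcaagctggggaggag
Fbxw20 (chr9:109063823-109063972): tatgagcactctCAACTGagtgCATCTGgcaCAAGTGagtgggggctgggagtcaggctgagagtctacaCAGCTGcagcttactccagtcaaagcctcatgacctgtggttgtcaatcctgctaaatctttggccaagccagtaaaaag

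E-boxes are the sites read by basic helix-loop-helix factors, among them the oocyte regulator Figla. An E-box was found in 15 of 15 cluster windows, 53.3% of the windows of the other 60 members searched and 46.1% of those of 21757 protein-coding genes. The E-box spelled CAGCTG was in 14 of 15 cluster windows and in 7.7% of the coding-gene windows. TTTAAA was in 13 of 15, against 8.3% of the other members and 6.3% of coding genes. In all 13 windows that held both, 71 bases separated the first base of the last CAGCTG from that of the last TTTAAA, which itself began 10 to 45 bases before the transcript start. TATAAA was in 0 of 15, and the homeobox core letters TAATTG and TAATTA were each in 0 of 15. All these motifs were searched on both strands, CAGCTG and TTTAAA were chosen after the windows had been seen, and the 14 alike windows are copies of one another rather than independent examples. The window of Fbxw23 had neither CAGCTG nor TTTAAA and aligned with the others over only 18 to 33 bases. Genes whose level was lower in IVO oocytes and genes whose level was not (Fbxw14, Fbxw28) held the same 2 motifs at the same spacing.

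**Figure D1:**
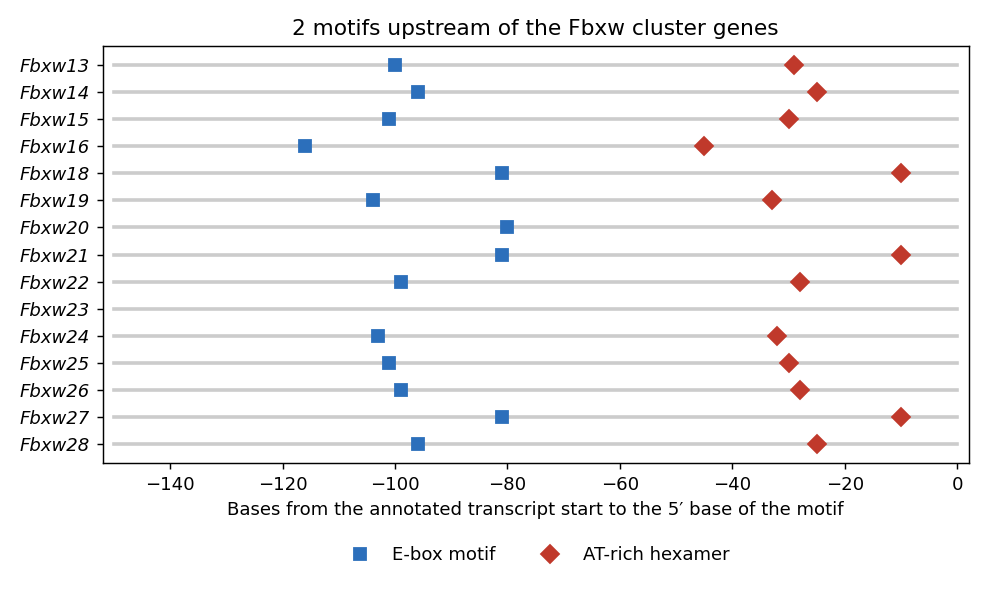
Positions of an E-box (blue squares, spelled CAGCTG) and of the AT-rich hexamer TTTAAA (red diamonds) in the 150 bases upstream of the annotated transcript start of the 15 Fbxw cluster genes, in bases from the start to the first base of the motif. The 13 genes that hold both have them 71 bases apart, Fbxw20 has only the E-box and Fbxw23 has neither.

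The likeness of the coding sequences bears on how reads could be assigned. Upstream identity covered only the aligned part of each window (112 to 150 bases). It therefore cannot be ranked against the coding identity given here. Over the 91 pairs of the 14 protein-coding cluster genes, coding identity ran from 79.0% to 99.1% with a median of 83.6%. Fbxw14 and Fbxw28 were the closest pair at 99.1%, and Fbxw22 was nearest to Fbxw14 at 92.3%. The first 90 coding bases, which begin the F-box end of the protein, are shown with capitals at each base that differs from Fbxw14:
Fbxw14: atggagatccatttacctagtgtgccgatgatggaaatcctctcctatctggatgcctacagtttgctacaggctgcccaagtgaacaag
Fbxw28: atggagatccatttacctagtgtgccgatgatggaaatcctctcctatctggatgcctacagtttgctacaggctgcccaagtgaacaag
Fbxw13: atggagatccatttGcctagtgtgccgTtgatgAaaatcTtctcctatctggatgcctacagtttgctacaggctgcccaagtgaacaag
Fbxw21: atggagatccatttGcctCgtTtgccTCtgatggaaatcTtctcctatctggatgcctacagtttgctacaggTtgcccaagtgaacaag
Fbxw26: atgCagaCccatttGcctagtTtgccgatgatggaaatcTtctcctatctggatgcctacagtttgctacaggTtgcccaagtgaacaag
Fbxw24: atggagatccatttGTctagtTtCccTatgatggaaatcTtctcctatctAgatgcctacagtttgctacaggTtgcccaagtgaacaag

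Fbxw28 had 0 differences from Fbxw14 in this stretch, Fbxw13 had 4, Fbxw26 had 6, Fbxw21 had 7 and Fbxw24 had 8. Of all stretches of 150 bases in the transcript, 30.2% in Fbxw14 also occurred exactly in Fbxw28, and 32.2% of those in Fbxw28 occurred in Fbxw14. In Fbxw23 57.8% occurred in another gene. The split of reads between these genes is therefore uncertain, and their sum is given below. In 9 of the 15 cluster genes, among them Fbxw13, Fbxw21, Fbxw25 and Fbxw26, 0% of such stretches occurred elsewhere.

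The cluster made up most of the summed FPKM of the 77 members in all 6 pools. FPKM are fragments scaled to transcript length and to the mapped fragments of the library, so levels can be compared between genes. Summed over the 15 genes they came to 24080, 27060 and 18490 in the IVM pools and to 21920, 21590 and 23060 in the IVO pools, which was 87.7% to 91.0% of the FPKM of all 77 members. The groups overlapped, with IVM at 23210 ± 4349 and IVO at 22190 ± 775 (SD, n = 3). As a share of all FPKM in the library, the cluster took 1.01% to 1.28% in IVM oocytes and 1.38% to 1.40% in IVO oocytes. The totals differ because FPKM of all genes summed to 1826738 to 2111776 in IVM libraries and 1560813 to 1643682 in IVO libraries.

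Fbxw14 had the tenth highest mean level of all Ensembl genes (rank 10 of 53700). Its FPKM were 8164, 10079 and 6254 in the IVM pools and 8015, 8050 and 8773 in the IVO pools. The groups overlapped, and the log2 fold change was 0.05 (SE 0.18, adjusted p = 0.884). Fold changes throughout are IVO minus IVM on the log2(FPKM + 1) scale from a limma fit, so negative values are lower in IVO oocytes. Fbxw28 (rank 39) was at 4249, 5287 and 3320 in IVM and at 4797, 4797 and 5029 in IVO oocytes, with a log2 fold change of 0.21 (SE 0.18, adjusted p = 0.446). The sum of this near-identical pair was 12410, 15370 and 9574 against 12810, 12850 and 13800 FPKM, again overlapping. Fbxw24 (rank 61) followed at 3963, 4001 and 2978 against 3575, 3405 and 3265 FPKM (log2 fold change -0.08, SE 0.15, adjusted p = 0.738). Fbxw14 and Fbxw28 differed by more than their spread, with the highest Fbxw28 value below the lowest Fbxw14 value, while the ranges of Fbxw28 and Fbxw24 overlapped, although Fbxw28 was above Fbxw24 in every pool.

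**Figure D2:**
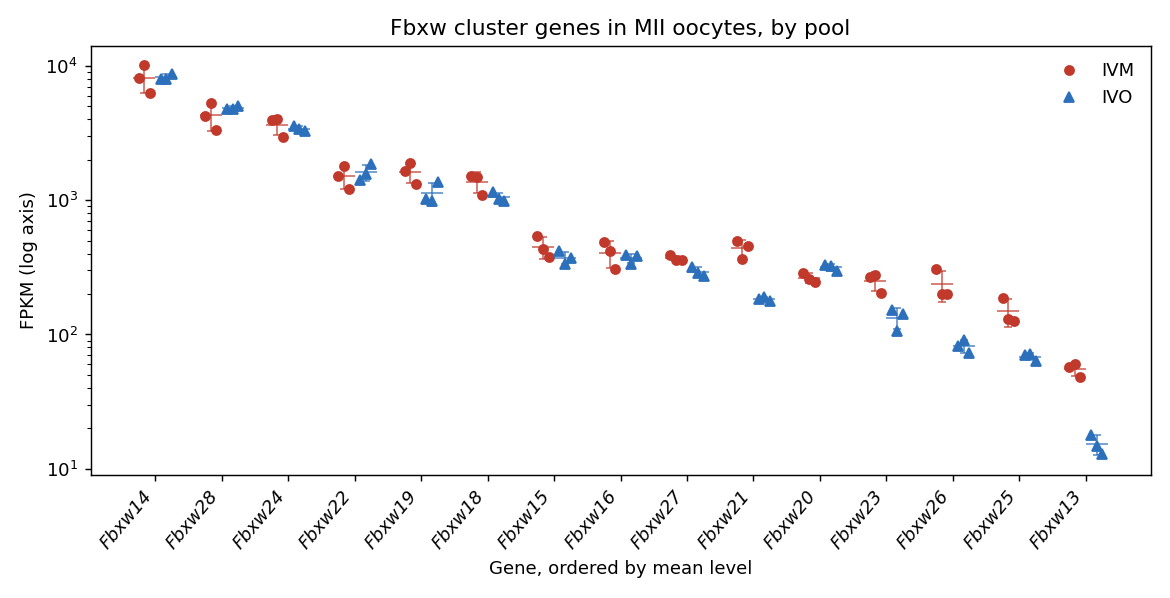
FPKM of the 15 Fbxw cluster genes on a log axis in the 3 IVM pools (red circles) and the 3 IVO pools (blue triangles), with group means and SD as bars. Fbxw14 has the highest level in both groups, while Fbxw13, Fbxw21, Fbxw23, Fbxw25, Fbxw26 and, more narrowly, Fbxw27 have every IVO value below every IVM value.

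Within the cluster, 4 of the 15 genes were lower in IVO oocytes by the study's thresholds (adjusted p under 0.05 and an absolute log2 fold change of at least 1), and 0 were higher. Over all 18818 tested genes the same call was made for 17.9% as lower and for 0.606% as higher. The cluster's share of 26.7% is a count of 4 genes and is read beside that background. The median log2 fold change was -0.33 in the cluster and -0.30 over all tested genes.

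Fbxw13 had the largest difference in the cluster. It was at 56.9, 60.2 and 48.0 FPKM in the IVM pools and at 17.96, 14.8 and 12.9 FPKM in the IVO pools. All 3 IVO values lay below the lowest IVM value, the mean was 3.62 times higher in IVM oocytes, and the log2 fold change was -1.80 (SE 0.21, adjusted p = 0.0021). The call was made in 16 of the 16 fits that were run.

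Fbxw26 was at 306, 200 and 202 FPKM in IVM and at 82.4, 90.9 and 73.2 FPKM in IVO oocytes. The groups did not overlap, and the log2 fold change was -1.49 (SE 0.22, adjusted p = 0.00498). Fbxw21, the gene at the start of the cluster, was at 500, 363 and 453 FPKM against 183, 189 and 177 FPKM (log2 fold change -1.25, SE 0.17, adjusted p = 0.00406). Fbxw25 was at 188, 130 and 127 FPKM against 70.0, 71.9 and 63.7 FPKM (log2 fold change -1.08, SE 0.21, adjusted p = 0.0116). For Fbxw26, Fbxw21 and Fbxw25 the IVM mean was 2.87, 2.40 and 2.16 times the IVO mean. Without IVM1, which had the highest value of Fbxw26, Fbxw21 and Fbxw25, the change in Fbxw25 was -0.90 and no longer passed the fold threshold. Under median-ratio scaling, which moves the median of all genes to -0.04, Fbxw13 and Fbxw26 were still called, while Fbxw21 (-0.92) and Fbxw25 (-0.76) fell short of the fold threshold. Under quantile normalization, which moves it to 0.17, Fbxw26 (-0.97) was short of it too and Fbxw13 (-1.29) was the 1 cluster gene called.

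The pseudogene Fbxw23 passed the adjusted p threshold but not the fold threshold, at 270, 277 and 204 FPKM against 152, 106 and 143 FPKM (log2 fold change -0.91, SE 0.21, adjusted p = 0.0235). It was called without IVM3 (-1.05) or without IVO1 (-1.01). Under median-ratio scaling its adjusted p was 0.105. The other 10 cluster genes did not pass the adjusted p threshold. Fbxw19 had a log2 fold change of -0.54 (adjusted p = 0.0951), and Fbxw18 one of -0.37 (adjusted p = 0.178). Fbxw27 was at -0.33, Fbxw15 at -0.25 and Fbxw16 at -0.11, with adjusted p of 0.155, 0.378 and 0.747. Fbxw22 was at 0.11 (adjusted p = 0.715). Fbxw20 was at 288, 257 and 248 FPKM in IVM and at 330, 322 and 295 FPKM in IVO oocytes, the 1 cluster gene whose IVO values all lay above its IVM values, with a log2 fold change of 0.25 (SE 0.15, adjusted p = 0.27).

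**Figure D3:**
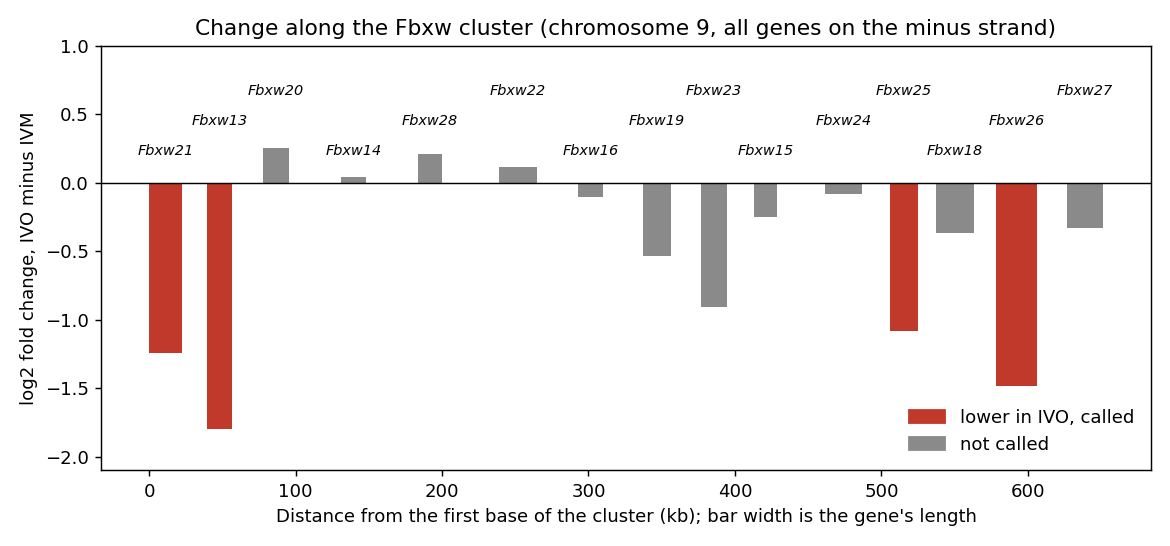
Log2 fold change (IVO minus IVM) of the 15 Fbxw cluster genes along chromosome 9, in kb from the first base of the cluster, with bar widths set by gene length and called genes in red. Fbxw21 and Fbxw13 stand at one end of the cluster and Fbxw25 and Fbxw26 towards the other, with genes that were not called (gray) between and beside them.

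The called genes were not in one block. Fbxw21 and Fbxw13 were the first and second genes of the array, Fbxw25 and Fbxw26 the 12th and the 14th, and Fbxw18 between them was not called. Fbxw14 and Fbxw28 stood next to each other. Fbxw13 and Fbxw21 were each other's nearest relatives in coding sequence (86.8%). Fbxw25 was nearest to Fbxw27 (89.9%) and Fbxw26 to Fbxw16 (89.6%), neither of which was called.

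The genes that were lower in IVO oocytes were among the less abundant genes of the cluster. The called genes had mean levels from 35.1 to 311 FPKM, while the 6 most abundant cluster genes (Fbxw14, Fbxw28, Fbxw24, Fbxw22, Fbxw19 and Fbxw18) had log2 fold changes from -0.54 to 0.21. Across the 15 genes, Spearman's rho between mean level and log2 fold change was 0.70 and Pearson's r with the log level was 0.75. Over all tested genes rho was -0.06. These are descriptions across genes that share the same 6 libraries, and mean level and fold change are not independent measures.

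**Figure D4:**
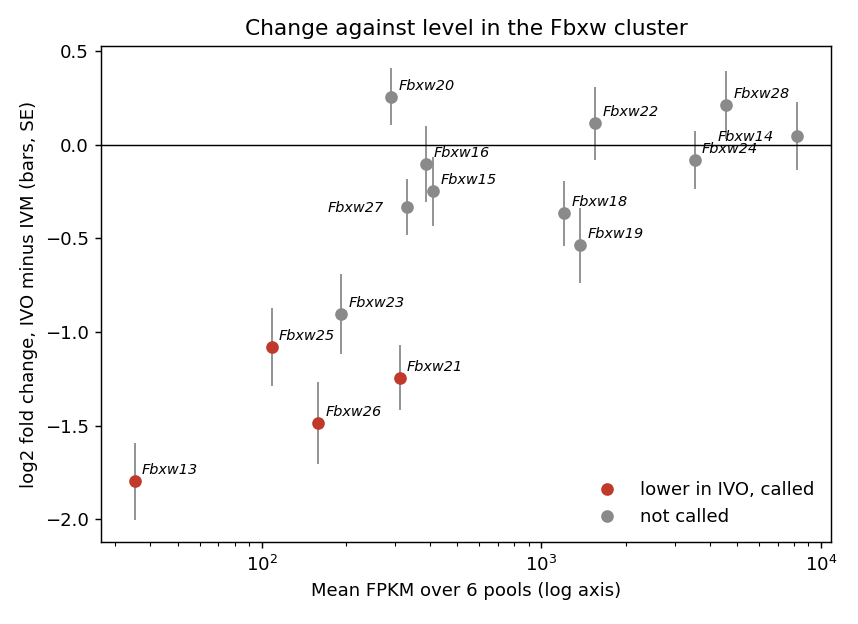
Log2 fold change (IVO minus IVM, bars are SE) against mean FPKM over the 6 pools on a log axis for the 15 Fbxw cluster genes, with called genes in red. Fbxw13 is at the lowest level and has the largest decrease, and the 4 most abundant genes lie within 0.21 of 0.

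Ratios within a library do not change when each library is scaled by 1 factor, as in median-ratio scaling. Quantile normalization and removal of the length trend can change them, and the ratios below use the FPKM as given. The denominator, Fbxw14 and Fbxw28 together, was chosen after the data had been seen. Relative to it, Fbxw13 was at 0.458%, 0.392% and 0.502% in the IVM pools and at 0.140%, 0.115% and 0.0932% in the IVO pools, 3.88 times higher in IVM oocytes. Fbxw26 was at 2.46%, 1.302% and 2.11% against 0.644%, 0.707% and 0.531%, and Fbxw21 at 4.03%, 2.37% and 4.73% against 1.43%, 1.47% and 1.28%. Fbxw25 was at 1.52%, 0.844% and 1.32% against 0.547%, 0.560% and 0.461%. Of the 13 ratios, 7 did not overlap between the groups and were 1.39 to 3.88 times higher in IVM oocytes, and the other 6 overlapped. Over all 18818 tested genes, the ratio to the same denominator did not overlap with IVO lower in 32.8% and with IVO higher in 3.61%. The 7 were Fbxw13, Fbxw26, Fbxw21, Fbxw25, Fbxw23, Fbxw19 and Fbxw18. Each had an exact two-sided permutation p = 0.1 over samples (n = 3 per group), the smallest this design allows, and 0.186 after Benjamini-Hochberg adjustment over the 13.

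Outside the cluster, the 9 Fbxw genes were mostly low, and 7 of them could be tested. Fbxw4 (dactylin) was the most abundant, at 284, 166 and 292 FPKM against 282, 282 and 238 FPKM (log2 fold change 0.15, SE 0.25, adjusted p = 0.701). Of its stretches of 150 bases, 19.3% were shared with the protein-coding Gm17018 on the other strand, which had a mean of 103.6 FPKM. The split of reads between Fbxw4 and Gm17018 is therefore uncertain. Fbxw8 (chr5:118203030-118293580) is known as a partner of Cul7, which was listed at 0 FPKM in all 6 pools. Fbxw8 was at 156, 131 and 76.2 FPKM in IVM and at 36.8, 49.3 and 13.3 FPKM in IVO oocytes. The groups did not overlap, and the log2 fold change was -1.96 (SE 0.50, adjusted p = 0.0291). The spread was wide and the call was lost without IVM1, IVM2 or IVO1 (log2 fold changes of -1.75, -1.87 and -2.13). In Fbxw8, 31.6% of stretches of 150 bases were shared with the noncoding Gm9754 on the other strand, which had a mean of 0.05 FPKM.

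The well-studied Fbxw genes were at a few FPKM and were not called. Fbxw11, a β-TrCP protein, was at 5.07, 3.93 and 5.31 FPKM against 4.15, 9.76 and 4.92 FPKM (log2 fold change 0.27, adjusted p = 0.59). Fbxw7, which targets cyclin E and Myc, was at 3.78, 3.82 and 5.56 FPKM against 5.12, 5.01 and 5.28 FPKM (log2 fold change 0.20, adjusted p = 0.551). Fbxw5 had a log2 fold change of -0.60 (adjusted p = 0.177). Fbxw17, which has a cluster-like name but lies on chromosome 13, was at 1.11 to 4.06 FPKM in IVM and at 0.63 to 1.46 FPKM in IVO oocytes.

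**Figure D5:**
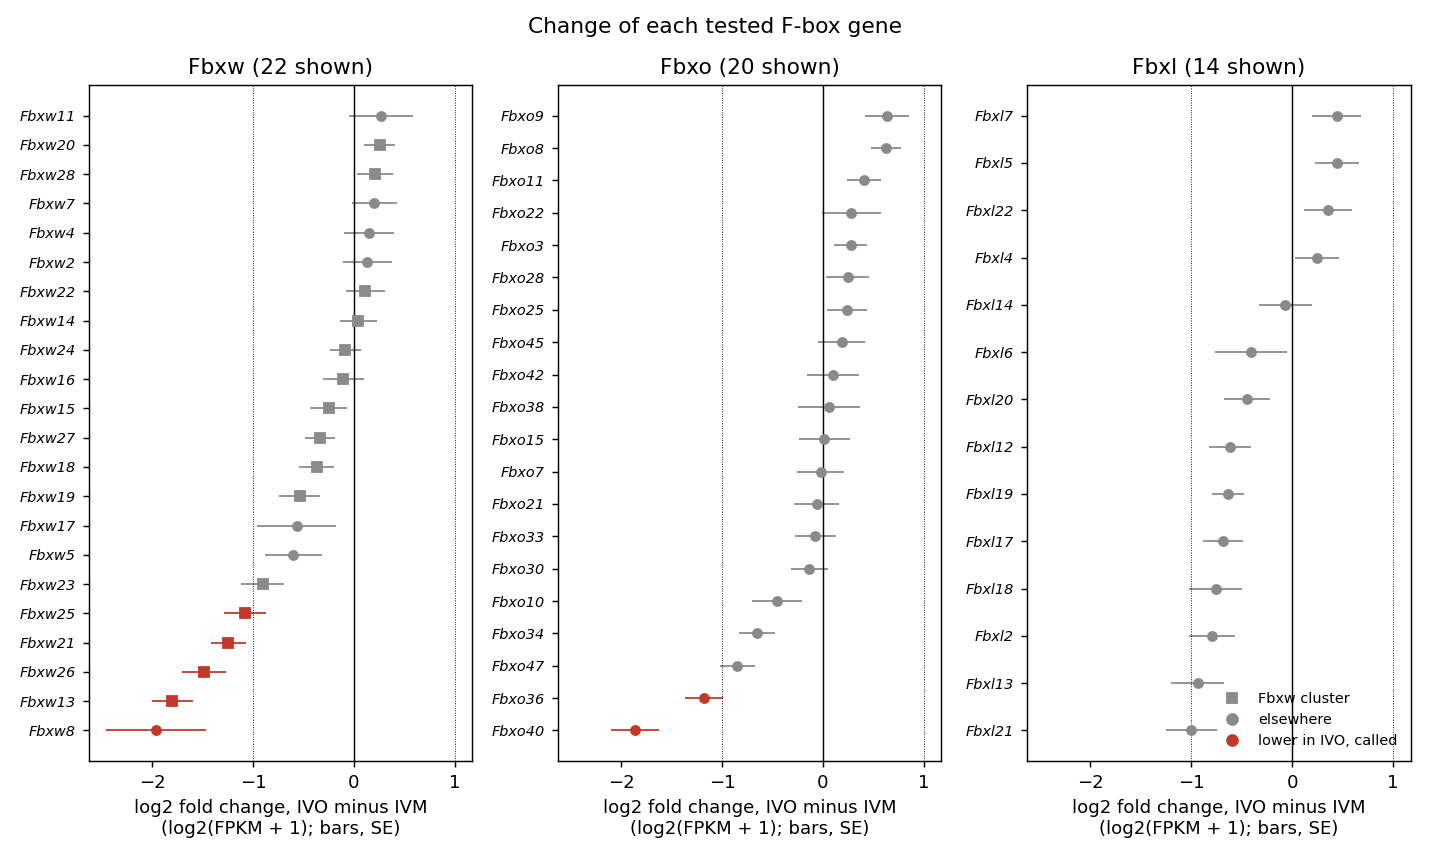
Log2 fold change (IVO minus IVM, bars are SE) of 56 of the 57 tested F-box genes in the Fbxw, Fbxo and Fbxl subfamilies, with squares for cluster genes, circles for the others, red for called genes and dotted lines at the fold threshold of 1. Red symbols lie only to the left, with 5 in Fbxw, 2 in Fbxo and 0 in Fbxl.

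Of the 77 members, 57 had a mean of at least 1 FPKM over the 6 pools and were tested. Of these, 20 had a mean of at least 100 FPKM, 14 lay from 10 to 100 and 23 from 1 to 10. The call as lower in IVO was made for 7 (12.3%) and as higher for 0, against 17.9% and 0.606% of all tested genes. At an unadjusted p under 0.05, 3 were higher, against 1047 of all 18818 tested genes. By subfamily the call as lower was made for 5 of 22 Fbxw, 2 of 20 Fbxo and 0 of 15 Fbxl genes. At an adjusted p under 0.05 with any fold change, 15 members were lower and 1 was higher, against 21.5% and 1.87% of all tested genes. The IVM and IVO values did not overlap in 19 members with IVO lower and 9 with IVO higher, against 32.6% and 9.62% of all tested genes. The median log2 fold change was -0.08 over the tested members, -0.29 in Fbxw, 0.04 in Fbxo and -0.45 in Fbxl genes, beside -0.30 over all genes. Under quantile normalization the medians were 0.10 in Fbxw, 0.52 in Fbxo and 0.03 in Fbxl genes and 0.07 in the cluster, beside 0.17 over all genes, so the signs of the Fbxw, Fbxl and cluster medians rest on the scaling. Differences between the subfamilies were not tested.

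Among the Fbxo genes, which summed to 905 to 989 FPKM in IVM and 947 to 990 FPKM in IVO oocytes, Fbxo8 was the most abundant. Fbxo8, a protein with a Sec7 domain, was at 221, 193 and 200 FPKM in the IVM pools and at 323, 303 and 324 FPKM in the IVO pools. It was the 1 member that was higher in IVO oocytes at an adjusted p under 0.05, with a log2 fold change of 0.63 (SE 0.15, adjusted p = 0.0234) that was under the fold threshold. Without 1 library its adjusted p reached 0.0801. Fbxo47, which acts in meiotic prophase, was at 166, 132 and 134 FPKM against 75.0, 78.1 and 84.7 FPKM (log2 fold change -0.85, SE 0.17, adjusted p = 0.0143). Fbxo34 was at 110, 110 and 137 FPKM against 75.4, 80.0 and 69.7 FPKM (log2 fold change -0.65, adjusted p = 0.0359). Neither reached the fold threshold. Under median-ratio scaling Fbxo47 was at -0.53 (adjusted p = 0.0797) and Fbxo34 at -0.335 (adjusted p = 0.185). Without 1 library the adjusted p reached 0.0522 for Fbxo47 and 0.0987 for Fbxo34. Fbxo11 had a log2 fold change of 0.40 (adjusted p = 0.129) and Fbxo33 one of -0.08 (adjusted p = 0.822).

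Fbxo40 (chr16:36783822-36810902), known as a muscle F-box gene that acts on Irs1, was at 6.92, 4.96 and 5.23 FPKM in IVM and at 1.03, 0.87 and 0.61 FPKM in IVO oocytes. The groups did not overlap, and the log2 fold change was -1.86 (SE 0.24, adjusted p = 0.00309), although the lowest library held only about 25 fragments of it. The ratio of the mean FPKM was 6.82, since the added 1 FPKM lowers the fold change of weak genes. Fbxo36 (chr1:84817555-84878208) was at 63.5, 65.6 and 51.1 FPKM against 26.0, 23.7 and 27.9 FPKM (log2 fold change -1.18, SE 0.19, adjusted p = 0.0063). Its change was -0.86 under median-ratio scaling, which ended the call. Fbxo36 overlaps Trip12 and Slc16a14 on the other strand, which had means of 152 and 104 FPKM. Of its stretches of 150 bases, 0% occurred in another gene.

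Fbxl genes as a group summed to 1611, 1525 and 1239 FPKM in the IVM pools and to 937, 915 and 1036 FPKM in the IVO pools, without overlap. Most of this came from a pair of genes. Fbxl17, which takes part in the quality control of BTB-domain dimers, was at 825, 842 and 591 FPKM against 432, 426 and 535 FPKM (log2 fold change -0.69, SE 0.20, adjusted p = 0.043). Fbxl19, which binds unmethylated CpG islands, was at 590, 553 and 461 FPKM against 356, 342 and 332 FPKM (log2 fold change -0.63, SE 0.16, adjusted p = 0.0276). Neither reached the fold threshold, and without 1 library the adjusted p reached 0.13 for Fbxl17 and 0.0865 for Fbxl19. Under median-ratio scaling Fbxl17 was at -0.37 (adjusted p = 0.269) and Fbxl19 at -0.31 (adjusted p = 0.223), and under quantile normalization they were at -0.19 and -0.14.

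The remaining Fbxl genes were each under 100 FPKM. Fbxl21 was at 4.73, 6.42 and 4.45 FPKM against 2.82, 1.97 and 1.56 FPKM, with a log2 fold change of -0.999 (SE 0.26, adjusted p = 0.0306) that falls just short of the fold threshold. Without 1 library its adjusted p reached 0.0897. Fbxl5, the iron-sensing subunit that acts on Irp2, was at 36.5, 24.1 and 34.4 FPKM against 47.1, 41.8 and 39.5 FPKM (log2 fold change 0.44, adjusted p = 0.19). The IVO values of Fbxl5 all lay above its IVM values, but it did not pass the test. Fbxl6 had a log2 fold change of -0.41 (adjusted p = 0.457). Fbxl2 (-0.79) and Fbxl13 (-0.93) passed the adjusted p threshold alone, at 0.0425 and 0.0414. Without 1 library the adjusted p reached 0.137 and 0.109, and under median-ratio scaling it was 0.102 and 0.0733. The lowest library held only about 13 fragments of Fbxl13. Of its stretches of 150 bases, 42.4% were shared with Fam185a on the other strand, which had a mean of 21.9 FPKM.

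The 20 members that were not tested comprised 14 Fbxo, 4 Fbxl and 2 Fbxw genes, and none exceeded 1.56 FPKM in any pool. Fbxl16, Fbxo2, Fbxo24 and Fbxo44 were listed at 0 in all 6 pools. Fbxw9 was at 1.56, 0.46 and 1.06 FPKM in IVM and at 0.07, 0.17 and 0.17 FPKM in IVO oocytes. Fbxo16 was at 0.37, 0.39 and 0.40 FPKM against 0.07, 0 and 0.07 FPKM. A floor of 3 fragments corresponds to 0.12 to 0.142 FPKM in a transcript of 1500 bases and to less in a longer one such as Fbxo16 (3781 bases), whose highest value came from about 27 fragments. Several tested members overlap a gene on the other strand, including Fbxo8 with Cep44, Fbxo22 with Nrg4 and Fbxl14 with Wnt5b, and the library kit does not mark strand. Fbxl12 overlaps Ubl5, Fbxl22 overlaps Herc1 and Fbxw7 overlaps Gm37240, which had means of 1524, 1204 and 512 FPKM.

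The partners that F-box proteins need were described from a list of 35 SCF subunits, neddylation enzymes, COP9 signalosome subunits and related genes, of which 34 were matched and 31 tested. Of the 31, 6 (19.4%) were lower in IVO oocytes and 0 were higher, close to the 17.9% lower and 0.606% higher over all tested genes. The count of calls itself is therefore not a result about these partners. At an unadjusted p under 0.05, 6 were higher, against 1047 of all 18818 tested genes. Their median log2 fold change was -0.19, beside -0.30 over all genes. The IVM and IVO values did not overlap in 10 with IVO lower and 9 with IVO higher, against 32.6% and 9.62% of all tested genes. The adaptor Skp1 was at 1346, 1087 and 811 FPKM in IVM and at 402, 464 and 365 FPKM in IVO oocytes. The groups did not overlap, and the log2 fold change was -1.37 (SE 0.22, adjusted p = 0.00606). The scaffold Cul1 was at 799, 809 and 758 FPKM against 847, 917 and 954 FPKM (log2 fold change 0.20, SE 0.13, adjusted p = 0.329). Rbx1 was at 892, 1407 and 852 FPKM against 1093, 964 and 1071 FPKM (log2 fold change 0.03, SE 0.22, adjusted p = 0.947). Of the core, only Skp1 was called, and under quantile normalization it was at -0.90 and was not called either.

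The cullin modifier Nedd8 was at 404, 409 and 272 FPKM against 108, 97.7 and 116 FPKM (log2 fold change -1.72, SE 0.21, adjusted p = 0.00255). Both Nedd8-conjugating enzymes were also lower, Ube2m at -1.78 (SE 0.33, adjusted p = 0.0102) and Ube2f at -1.55 (SE 0.25, adjusted p = 0.00679). Other listed neddylation genes were not lower. Uba3 (0.50, adjusted p = 0.0568), Dcun1d2 (0.49, adjusted p = 0.135) and Senp8 (0.42, adjusted p = 0.14) had every IVO value above every IVM value and were not called. Nae1 was at -0.04 (adjusted p = 0.904). Ube2m lay between 12.1 and 28.5 FPKM in the IVM pools and between 4.78 and 5.80 FPKM in the IVO pools, and Ube2f between 4.82 and 8.06 FPKM against 1.38 and 1.93 FPKM. Rnf7, the second RING partner of cullins, was at -1.05 (adjusted p = 0.0228), and Ube2r2, a ubiquitin-conjugating enzyme used by SCF ligases, at -1.01 (adjusted p = 0.0117). Both calls were near the thresholds. Under median-ratio scaling Rnf7 was at -0.75 (adjusted p = 0.0836) and Ube2r2 at -0.69 (adjusted p = 0.0633), and over the 16 fits they were called in 8 and in 11. Without IVM1 or without IVO1 neither was called, and Rnf7 was not called without IVM2 or without IVO2 either. Cks2, the small Cdk-binding protein, was the 1 listed gene that was higher at an adjusted p under 0.05, with a log2 fold change of 0.59 (adjusted p = 0.0428). Without 1 library its adjusted p reached 0.125.

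F-box proteins without an Fbx symbol were described from a list of 6 genes, of which 5 were tested, 1 was called lower in IVO oocytes and 0 higher. That gene was Kdm2b, a histone demethylase with an F-box, at 18.1, 9.94 and 15.5 FPKM against 6.86, 7.40 and 5.09 FPKM, without overlap (log2 fold change -1.03, SE 0.27, adjusted p = 0.0336), and it was called in 6 of the 16 fits. Skp2, which targets p27, was at 4.43, 4.49 and 5.67 FPKM against 6, 5.65 and 5.79 FPKM (log2 fold change 0.22, adjusted p = 0.469). Btrc, the other β-TrCP gene, was at 12.0, 12.3 and 12.3 FPKM against 11.3, 11.6 and 12.5 FPKM (log2 fold change -0.04, adjusted p = 0.889). Ccnf, or cyclin F, was at 1.60, 1.55 and 1.54 FPKM against 2.45, 2.65 and 0.51 FPKM (log2 fold change 0.06, adjusted p = 0.931).

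The labelled cell type was checked against its markers. All 11 oocyte markers were tested, and their FPKM summed to 15900 to 18080 in IVM and 15330 to 18920 in IVO oocytes. Most of the sum was Oosp1 alone, at 10146 to 14047 FPKM in IVM and 11971 to 15158 FPKM in IVO oocytes. The median log2 fold change of the markers was -0.86, with 9 below 0, and Dazl was at 0.74 (adjusted p = 0.022). Over all tested genes the median was -0.30, and 12414 of 18818 were below 0. By both thresholds 4 of the 11 (36.4%) were lower in IVO oocytes, against 17.9% of all tested genes. They were the zona pellucida genes Zp1, Zp2 and Zp3 and the maternal gene Nlrp5, with log2 fold changes from -3.69 to -1.99. Of 14 cumulus and granulosa markers, 12 had a mean under 1 FPKM, Amh was at 0, and Fshr and Cyp19a1 were at 6.14 to 23.1 FPKM in both groups. The cumulus expansion genes Has2, Ptx3 and Tnfaip6 had every IVO value above every IVM value, at low levels. They rested on about 3 to 27, 0 to 5 and 0 to 13 fragments a library and were not tested. Over all tested genes 9.62% had this order. Has2 was at 0.04 to 0.14 FPKM in the IVM pools and 0.17 to 0.37 FPKM in the IVO pools, Ptx3 at 0 to 0.03 against 0.07 to 0.17 FPKM and Tnfaip6 at 0 to 0.14 against 0.34 to 0.49 FPKM. Ptgs2 overlapped, at 0.04 to 0.19 against 0.16 to 0.50 FPKM. Inha, Inhba, Cyp11a1, Lhcgr, Star and Foxl2 went the other way, with a higher mean in IVM and overlapping values. For Inha the means were 0.57 FPKM in IVM and 0.213 FPKM in IVO oocytes. The part of these transcripts in the differences between the groups was not tested. The summed level of all 14 markers was 24.1 to 33.9 FPKM in IVM and 30.5 to 35.7 FPKM in IVO oocytes. From the steps between low FPKM values, depth was inferred as 16400000 to 19400000 fragments in IVM and 17900000 to 18200000 in IVO libraries, with fragment lengths of 200 to 215 bases in IVM and 250 to 265 bases in IVO libraries. The fragment length thus moved with the group, and its part in the differences was not tested directly. With the trend of fold change on transcript length removed, 4 members were called lower, and Fbxw25, Fbxo36 and Fbxw8 were not among them. In bulk pools, fewer transcripts per oocyte and a change in the share of other transcripts cannot be told apart.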

How the data were processed

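Full-length cDNA of each pool was made with the SMART-Seq v4 kit, which primes on poly(A) tails, and sequenced in pairs. Per the labels and the study's methods, the authors aligned reads to GRCm39 with HISAT2 2.1.0 and deposited RSEM 1.3.3 FPKM per gene, and they tested counts, not used here, with DESeq2 1.24.0. RSEM shares out reads that fit several genes by estimation, which bears on near-identical genes. The deposited matrix also gives gene length and domain names.

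Genes with a mean of at least 1 FPKM over the 6 samples (18818) were tested as log2(FPKM + 1) with limma 3.58.1 (R 4.3.3; empirical Bayes with a trend, Benjamini-Hochberg adjustment), and a gene was called at an adjusted p under 0.05 and an absolute log2 fold change of at least 1, the study's thresholds. P-values measure the spread between 3 pools a group. The 9 alternatives were pseudocount 0.1, no filter, a mean of at least 5 FPKM, median-ratio scaling, quantile normalization, no trend, the replicate block, removal of the length trend and Ensembl genes alone, plus leaving out each sample. The script was tested on simulated data.

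Depth was inferred from FPKM steps in genes of 500 to 2000 bases, where 79.6% to 81.6% of low values came out as whole fragments within 0.15, so it is approximate, and floors cover counting error only. Sequences were read from GRCm39 with the GENCODE annotation, using a transcript of the listed length where there was one (31 members) and otherwise the canonical one, and aligned with Biopython 1.88. Members on chromosome 18 were left out of the sequence tables.

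The members and lists were chosen with earlier results of these data known. Named genes were cluster genes with a mean of at least 1 FPKM, the 5 most abundant of each subfamily, called members (up to 10 a direction), Skp1, Cul1 and Rbx1, called SCF genes (up to 8), Skp2, Btrc and Ccnf. Other genes named (Fbxw5, Fbxw7, Fbxw9, Fbxw11, Fbxw17, Fbxl2, Fbxl13, Fbxl21, Fbxo16, Cks2, Uba3, Nae1, Dcun1d2, Senp8, Kdm2b, the markers, the genes listed at 0 and overlapping genes) were chosen after their values were seen. Of the genes this rule names, 1 is not reported here.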

Additional observations from a re-analysis of the deposited data

How the results depend on the processing

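No F-box or SCF gene named here changed direction while called. Scaling mattered most: the median log2 fold change of all genes moved from -0.30 to -0.04 under median-ratio scaling and to 0.17 under quantile normalization, and the calls over all genes from 3366 lower and 114 higher to 2130 and 385, and to 1580 and 1097. Members called lower went from 7 to 4 with the length trend removed, 3 under median-ratio scaling (Fbxw13, Fbxw26, Fbxo40) and 2 under quantile normalization (Fbxw13, Fbxo40), where 2 Fbxo genes were called higher (Fbxo8 at 1.13 and Fbxo9). In these 3 settings, in that order, 3, 2 and 1 Fbxw genes and 1 Fbxo gene each were called lower, and in the cluster 2 and 1 under the last 2 settings. The medians became 0.118, 0.215 and 0.374 over all members, -0.076, 0.030 and 0.097 in Fbxw, 0.236, 0.307 and 0.522 in Fbxo, -0.244, -0.173 and 0.031 in Fbxl and -0.116, -0.010 and 0.067 in the cluster. In the SCF list 1 gene was called higher with the length trend removed; under quantile normalization 3 were called lower and 2 higher, and its median was 0.129 under median-ratio scaling and 0.324 under quantile normalization. With a mean of at least 5 FPKM, 1 Fbxo gene was called, since Fbxo40 was not tested, and the Fbxo median over the fewer genes tested was -0.020. With a pseudocount of 0.1, 3 Fbxl genes were called lower. Fbxw8 was not called without the filter on low values.

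Leaving out 1 sample gave 5 to 8 members called lower, 3 to 6 Fbxw genes (3 without IVM1), 0 to 1 Fbxl gene (1 without IVO1), 3 to 5 cluster genes and 4 to 7 SCF genes. Medians ranged from -0.222 to -0.086 over members, -0.362 to -0.144 in Fbxw, -0.019 to 0.149 in Fbxo and -0.604 to -0.336 in Fbxl. Same-numbered IVM and IVO samples did not deviate together (correlations from -0.107 to -0.018). With 3 samples a group this cannot show whether they shared a batch, and the labels give only a replicate number. With the replicate number as a block, 7 members were still called lower, 5 SCF genes were, and calls over all genes were 2899 lower and 92 higher. Depth limits the members under 1 FPKM, which were not tested.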
